A study of Mus musculus with 12 samples.

Results

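Coagulation turns soluble fibrinogen into a fibrin clot, and fibrinolysis dissolves it. The account below covers 35 mouse genes of these systems, taken by symbol from every gene counted: each of the 35 symbols matched 1 Ensembl ID, among 49585 IDs in the liver tables and 55401 in the macrophage tables. Of these, 23 are known as hepatocyte products that circulate in plasma, and 12 are known mainly from other cells (endothelium, platelets, monocytes, stellate cells). All 12 libraries held poly(A) RNA of C57BL/6 mice, in 4 groups of 3. Liver came from untreated mice, labelled WT (wild type), and from LPS-treated mice, the latter for 2 h with lipopolysaccharide from the wall of bacteria. The macrophage groups held peritoneal cells kept with a hairpin lentivirus over 72 h, to which LPS was added for the last step of 2 h. Their hairpin was either the control shNC or shGm26917, which targets a long non-coding RNA, so every macrophage library carried a lentivirus and had LPS, and the effect of LPS on macrophages was not measured. The labels give no vehicle for the untreated livers, no dose or route of LPS, no age or sex, and do not say whether replicates were separate animals or cultures. The p-values then measure the spread between these samples only, which may be technical.

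Tissue factor (F3) with factor VII starts the extrinsic pathway, the contact factors (F12, F11, Klkb1, Kng1) start the intrinsic pathway, and both lead through factor X and thrombin (F2) to fibrin made from the Fga, Fgb and Fgg chains. Antithrombin (Serpinc1), heparin cofactor II (Serpind1), the protein C pathway (Proc, Pros1, Thbd, Procr) and tissue factor pathway inhibitor (Tfpi) restrain it. Plasmin, made from Plg by the activators Plat and Plau, cuts fibrin. The liver makes most of the plasma factors, while tissue factor, thrombomodulin and the activators are produced in vascular cells and in leukocytes. Fibrinogen is a known acute phase protein of the liver, and tissue factor is a known LPS-induced gene of monocytes and macrophages.

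The liver libraries held 17322800 to 20914000 counts and the macrophage libraries 15605300 to 18062900 (6 digits kept). Levels are CPM, counts relative to TMM-scaled library sizes, and levels of different genes are set side by side only per kilobase of merged exon (RPKM on the same library sizes). Differences are edgeR log2 fold changes with a standard error (SE). Each adjusted p comes from the quasi-likelihood test of edgeR, adjusted by Benjamini-Hochberg over all genes tested in the tissue, and a gene was called at an adjusted p under 0.05. Where leaving out 1 library ended a call, the adjusted p without that library stands in brackets after its name. Scaling by library totals in place of TMM shifted the all-gene median of the log2 fold changes by -0.43 in liver and by 0.29 in macrophages. It changed the calls over all genes from 3227 higher and 3060 lower to 1943 and 5305 in liver, and from 1618 and 1431 to 3135 and 794 in macrophages.

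Some libraries stood apart. LPS liver replicate 1 had a summed level of 99.9 CPM over 6 Kupffer cell markers, against 287 and 216 CPM in the other LPS livers, and of 18.4 CPM over 5 mesothelium markers, against 1.61 and 2.28 CPM. Among the macrophages, shNC replicate 2 had a lower F10 level than the other 5 libraries (76.7 against at least 1033 CPM), and without it 2715 genes were called higher and 2521 lower. Its summed marker levels also differed from those of shNC replicates 1 and 3. They were 320 against 1267 and 1620 CPM for Kupffer cells, and 295 against 97.3 and 127 CPM for vascular endothelium. For stellate cells and fibroblasts they were 1011 against 471 and 466 CPM, and for neutrophils 647 against 307 and 273 CPM. For large peritoneal macrophages its 348 CPM lay between 336 and 445 CPM. In the liver, 6 of 7 neutrophil markers were tested and all 6 were called higher after LPS. Their summed levels were 2.55 to 8.03 CPM in untreated livers and 214 to 298 CPM in LPS livers. Over all genes tested in liver, 23.3% were called higher and 22.1% lower. Of 9 platelet and megakaryocyte markers 4 were tested and 3 called higher (4.69 to 5.56, then 13.7 to 18.3 CPM). Of 8 sinusoidal endothelium markers 2 were called higher and 5 lower (164 to 252, then 162 to 182 CPM). The part of these cell types in the results below was not tested, and fewer cells of a type cannot be told apart from less RNA per cell in bulk samples. Hepatocyte markers were present in the liver, where 8 of them summed to 74482 to 136423 CPM, against at most 0.54 CPM in macrophages. Gm26917 itself was not analysed here in macrophages, so the hairpin labels carry no check by their target.

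In liver, 34 of the 35 genes passed the low-count filter, and F13a1 did not. After LPS 10 were called higher and 4 lower, that is 29.4% and 11.8% of 34, where 23.3% of all 13869 genes tested were called higher and 22.1% lower. The share called higher was near that of all genes, and the share called lower was smaller; neither was tested against it. The genes called higher were the fibrinogen chains Fga, Fgb and Fgg, the protein Z-dependent inhibitor Serpina10, F11, and from other cells F3, Procr, Thbd, Plaur and Tfpi2. The genes called lower were F5, F13b, Serpind1 and Adamts13. Under library totals the split was 8 higher and 8 lower: F11 and Tfpi2 were no longer called, and F8, F9, Proz and Tfpi were called lower. Over all 13869 genes that scaling gave 1943 higher and 5305 lower. Without LPS replicate 3, 9 were called higher and 2 lower, where 2651 and 2264 of all 14520 genes tested were called. By role, 3 genes were called higher and 2 lower of 7 tested in the common pathway and clot, 2 and 0 of 4 in initiation, 1 and 1 of 8 in the contact and intrinsic pathway, 3 and 1 of 8 among anticoagulants, and 1 and 0 of 7 in fibrinolysis.

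**Figure D1:**
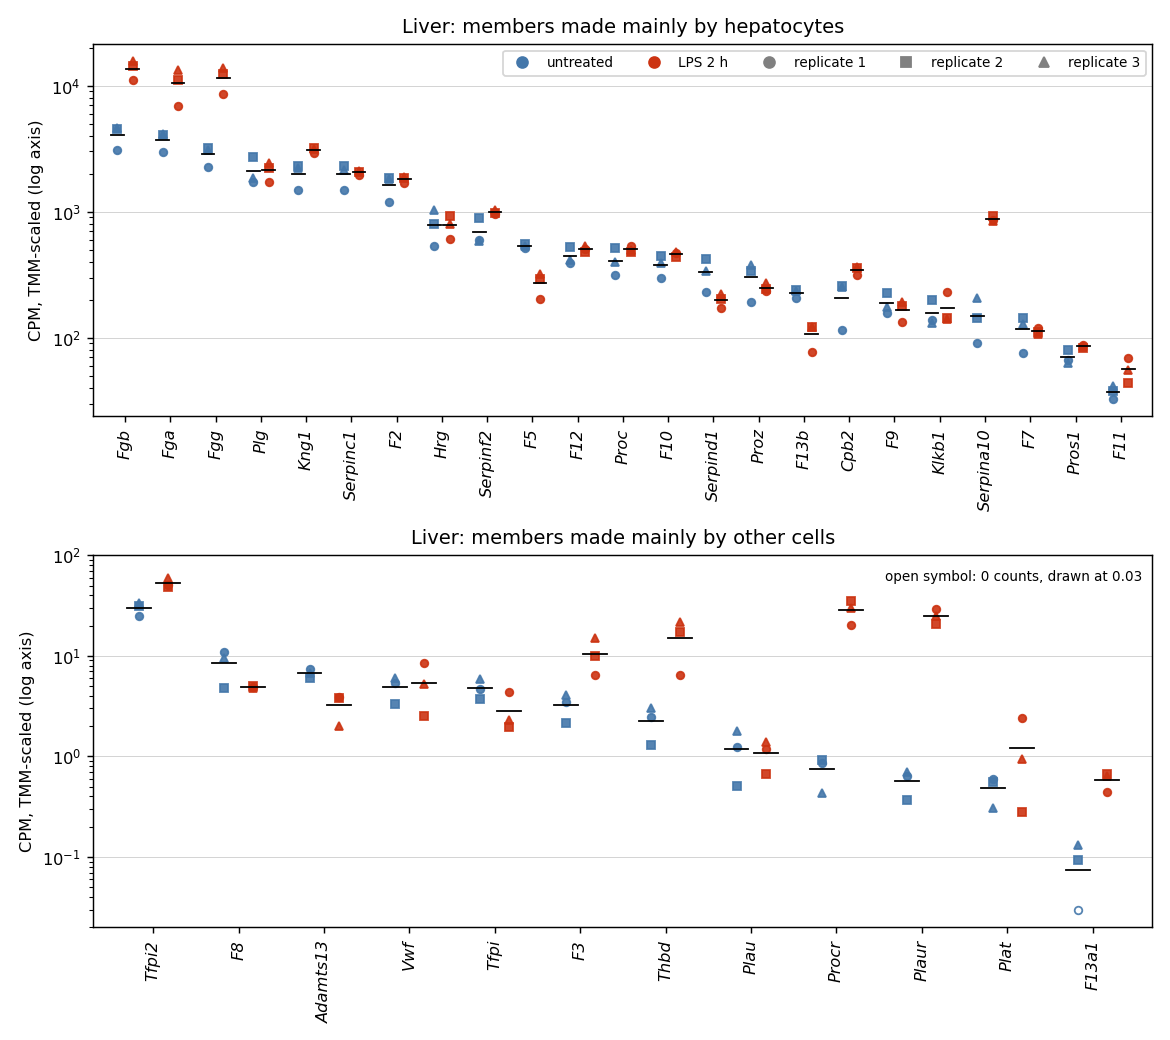
Level of each coagulation and fibrinolysis gene in liver, in CPM on a log axis, with 1 point per library (3 untreated, 3 LPS). The hepatocyte genes sit mostly above 30 CPM in both groups, and Plaur and Procr move from below 1 CPM to above 20 CPM.

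The fibrinogen chains were the most abundant of these transcripts per length and all 3 rose. Their promoter windows are shown first, since the 3 genes lie side by side on chromosome 3 and moved together: Fgg (chromosome 3, 83007724 to 83015049, plus strand), Fga (chromosome 3, 83026076 to 83033627, plus strand) and Fgb (chromosome 3, 83040141 to 83049863, minus strand), in GENCODE M21 on GRCm38, the build also called mm10. The windows run from 250 bases before to 50 bases after the RefSeq start (GRCm38.p6), at chr3:83007474-83007773 for Fgg, chr3:83025903-83026202 for Fga, and chr3:83049814-83050113 for Fgb, each written 5′ to 3′ on the strand of the gene. Capitals mark matches, on either strand, to 8 words named for factors known to act on liver or LPS-induced genes: AP-1 TGANTCA, STAT TTCNNNGAA, an acute phase core CTGGGA, C/EBP TTGCNNAA, HNF4 CAAAGNNCA, EGR1 GCGNGGGCG, and words of 10 letters for NF-kB and HNF1.
Fgg: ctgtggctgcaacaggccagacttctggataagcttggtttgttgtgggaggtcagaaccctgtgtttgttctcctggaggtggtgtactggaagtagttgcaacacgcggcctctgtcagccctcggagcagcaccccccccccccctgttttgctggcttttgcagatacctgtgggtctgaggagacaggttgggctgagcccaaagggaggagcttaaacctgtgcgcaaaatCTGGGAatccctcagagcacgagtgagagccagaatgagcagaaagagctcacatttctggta
Fga: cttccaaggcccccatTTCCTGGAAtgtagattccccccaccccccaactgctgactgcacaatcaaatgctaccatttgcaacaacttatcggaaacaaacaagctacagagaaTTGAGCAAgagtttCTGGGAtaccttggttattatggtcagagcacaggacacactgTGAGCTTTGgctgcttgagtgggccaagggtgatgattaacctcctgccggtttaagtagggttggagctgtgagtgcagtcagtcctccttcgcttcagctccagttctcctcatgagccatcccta
Fgb: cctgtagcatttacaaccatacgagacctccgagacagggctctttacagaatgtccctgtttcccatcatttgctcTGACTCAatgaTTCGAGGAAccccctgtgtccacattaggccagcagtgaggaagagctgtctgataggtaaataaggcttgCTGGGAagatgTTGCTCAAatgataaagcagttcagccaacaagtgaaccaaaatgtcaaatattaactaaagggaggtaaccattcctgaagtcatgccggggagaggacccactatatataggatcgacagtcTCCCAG
All 3 windows hold the core CTGGGA, which 31.8% of all 32817 windows in the table hold. The STAT word (8.29% of windows) and the C/EBP word (10.8%) are in the Fga and Fgb windows and not in the Fgg window. The HNF4 word (6.36%) is in the Fga window, and the AP-1 word (7.81%) is in the Fgb window. A match is a run of letters and not a measured binding site. Over the 27 genes with a window in the table, the core was in 13, the C/EBP word in 10, the AP-1 word in 6, the HNF4 word in 5, the STAT word in 4, the EGR1 word (5.56% of all windows) in 2, and the NF-kB word (4.8%) and HNF1 word (0.399%) in 1 each.

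Fgg had levels of 2264, 3175 and 3085 CPM in the untreated livers and 8558, 12321 and 13809 CPM in the LPS livers (log2 fold change 2.02, SE 0.33, adjusted p = 0.00154). Fgb stood at 3107, 4519 and 4617 CPM, then at 11038, 14174 and 15702 CPM (log2 fold change 1.74, SE 0.33, adjusted p = 0.00305). For Fga the levels were 2991, 4018 and 4104 CPM and 6926, 10979.8 and 13317 CPM (log2 fold change 1.49, SE 0.35, adjusted p = 0.00840). No untreated library reached the level of any LPS library for any chain, and LPS replicate 1 was the lowest of the LPS livers for all 3. Together the chains took 1.06%, 1.25% and 1.35% of all counts in the untreated livers and 2.33%, 3.23% and 3.62% in the LPS livers, a share that needs no TMM scaling. The chains are assembled in equal numbers into fibrinogen, and their transcripts did not keep 1 ratio. The level of Fgg per level of Fgb, both per length, was 1.33, 1.28 and 1.22 in untreated livers and 1.41, 1.58 and 1.6 after LPS. That of Fga per Fgb went the other way, from 1.22, 1.13 and 1.13 to 0.794, 0.981 and 1.07. Neither ratio overlapped between the groups, and neither was tested. Of the merged exons of Fgg, 5.5% lie opposite the non-coding Gm30097, which had at most 7 counts in a liver library.

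The other genes of the common pathway moved down or were not called. F5, the cofactor of factor X in making thrombin, fell from 519, 549 and 529 CPM to 204, 291 and 321 CPM (log2 fold change -0.97, SE 0.23, adjusted p = 0.00986). F13b, the plasma carrier subunit of the fibrin cross-linking factor XIII, fell from 205, 238 and 235 CPM to 76.8, 121 and 121 CPM (log2 fold change -1.09, SE 0.23, adjusted p = 0.00548). In both genes each LPS library was below each untreated library, and both calls held in every fit that left out 1 library. F2, prothrombin, had 1188, 1859.6 and 1810.2 CPM untreated and 1681, 1865 and 1893 CPM after LPS, and F10 had 299.5, 448 and 394 CPM and 473, 435 and 474 CPM. Both overlapped between groups and neither passed the test (log2 fold change 0.16 ± 0.26 SE and 0.28 ± 0.22 SE, adjusted p = 0.642 and 0.344). F5 shares 3.53% of its exon bases with the opposite-strand Gm16548.

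F7, the plasma partner of tissue factor, stood at 76.2, 144 and 129 CPM untreated and 119, 110.2 and 108 CPM after LPS (log2 fold change -0.05, SE 0.25, adjusted p = 0.878). The groups overlapped, with the lowest and the highest level both among the untreated livers. Proz, a vitamin K-dependent cofactor of Serpina10, had 191, 336 and 375 CPM and 234, 241 and 269 CPM (log2 fold change -0.28, SE 0.27, adjusted p = 0.434), also overlapping. F7, F10 and Proz lie in a row on chromosome 8, with gaps of 1498 and 4237 bases, and none of the 3 was called with TMM scaling.

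Among the contact and intrinsic factors, 1 was called in each direction. F11 rose from 32.6, 37.9 and 41.3 CPM to 69.3, 44.1 and 54.99 CPM (log2 fold change 0.59, SE 0.21, adjusted p = 0.0445), without overlap, but omitting untreated replicate 1 (0.119), untreated replicate 2 (0.0967), LPS replicate 1 (0.121), or LPS replicate 3 (0.0984) took its adjusted p over the threshold, as did library totals (0.510, log2 fold change 0.17) and the absence of a low-count filter (0.0544). Adamts13, the protease that trims von Willebrand factor and is known from hepatic stellate cells, fell from 7.37, 5.98 and 6.82 CPM to 3.89, 3.83 and 2.02 CPM (log2 fold change -1.05, SE 0.29, adjusted p = 0.0188), and that call did not stand without untreated replicate 1 (0.0505) or LPS replicate 3 (0.0582). Kng1, kininogen, had the highest level of the group per length, with 1496, 2285 and 2225 CPM untreated and 2914, 3208 and 3152 CPM after LPS. It did not overlap between groups and missed the threshold (log2 fold change 0.63, SE 0.27, adjusted p = 0.0892), and DESeq2 called it higher. Reads of Kng1 could be shared with its near-identical copy Kng2, whose treatment in the counting is not known. F12, the factor that starts contact activation, had 389.8, 521 and 414 CPM and 503, 475 and 532 CPM, and F9, the protease lost in haemophilia B, had 157, 228 and 177 CPM and 132, 177 and 191 CPM. Klkb1, prekallikrein, had 139, 199.9 and 131 CPM and 229, 143 and 141 CPM. These 3 overlapped between groups, with adjusted p = 0.497, 0.580 and 0.721 in that order. The same-strand model Gm45753 shares 43.2% of the exon bases of Klkb1 and had at most 1 count in a library. F8, the cofactor lost in haemophilia A and known from endothelium, stood at 10.97, 4.82 and 9.55 CPM and 4.89, 5.05 and 4.81 CPM (log2 fold change -0.78, SE 0.31, adjusted p = 0.0680). Its overlap came from untreated replicate 2, without which F8 was called lower (adjusted p = 0.00866). Vwf, the endothelial and platelet carrier of factor VIII, had 5.32, 3.34 and 5.99 CPM and 8.53, 2.50 and 5.25 CPM (log2 fold change 0.15, SE 0.43, adjusted p = 0.800), with both the lowest and the highest level in LPS livers.

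The inhibitors made by hepatocytes went in different directions. Serpina10, which blocks factor Xa with protein Z, had the largest rise of the 23 hepatocyte genes, from 90.9, 144 and 208 CPM to 861, 925 and 845 CPM, that is 5.93-fold (log2 fold change 2.57, SE 0.32, adjusted p = 0.000378). Its LPS livers lay within a narrow range far above all untreated livers. Serpind1, heparin cofactor II, fell from 231, 419 and 337 CPM to 173, 201 and 220.1 CPM (log2 fold change -0.73, SE 0.26, adjusted p = 0.0445). The groups did not overlap, yet omitting untreated replicate 2 (0.119), untreated replicate 3 (0.0632), LPS replicate 1 (0.133), LPS replicate 2 (0.123), or LPS replicate 3 (0.0966) ended the call. Serpinc1, antithrombin, had 1497, 2295 and 2129 CPM and 1969, 2075 and 2109 CPM (log2 fold change 0.06, SE 0.26, adjusted p = 0.879). The gene Zbtb37 overlaps 34.4% of its exon bases on the other strand and had at most 351 counts in a liver library. Proc, protein C, had 314, 510.2 and 396 CPM and 529, 474 and 500.1 CPM, and its cofactor Pros1 had 66.8, 79.1 and 63.3 CPM and 87.8, 82.7 and 86.2 CPM. Pros1 did not overlap between groups and Proc did, and neither was called (adjusted p = 0.187 and 0.329).

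No hepatocyte gene of fibrinolysis was called. Plg, plasminogen, had 1718, 2734 and 1864 CPM untreated and 1721, 2225 and 2429.9 CPM after LPS (log2 fold change 0.01, SE 0.29, adjusted p = 0.975). Slc22a3 overlaps 11.3% of its exon bases on the other strand. Serpinf2, the inhibitor of plasmin, had 592, 894 and 589 CPM and 955, 969 and 1032 CPM without overlap (log2 fold change 0.51, SE 0.25, adjusted p = 0.125). It was called higher without untreated replicate 2, its highest untreated library (adjusted p = 0.0427). Cpb2, a carboxypeptidase that protects fibrin from plasmin, had 116, 256 and 251 CPM and 314, 359 and 362 CPM, again without overlap (log2 fold change 0.73, SE 0.31, adjusted p = 0.0814), and DESeq2 called it higher. Hrg, a plasma protein that binds plasminogen and heparin, had 532, 801 and 1026 CPM and 605, 921 and 803 CPM with overlap (log2 fold change -0.02, SE 0.30, adjusted p = 0.967).

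Apart from Tfpi2, the genes of other cells started from low levels in liver. Of the 11 tested 5 rose, Tfpi2 among them. F3, Procr and Plaur are shown with their promoter windows because they were also called in the macrophages, in the opposite direction. F3 lies at chromosome 3, 121723537 to 121735048, Procr at chromosome 2, 155751117 to 155755471, and Plaur at chromosome 7, 24462484 to 24475968 (GENCODE M21). The windows lie at chr3:121723287-121723586 for F3, chr2:155750967-155751266 for Procr and chr7:24462233-24462532 for Plaur, all on the plus strand, with capitals for the same 8 words.
F3: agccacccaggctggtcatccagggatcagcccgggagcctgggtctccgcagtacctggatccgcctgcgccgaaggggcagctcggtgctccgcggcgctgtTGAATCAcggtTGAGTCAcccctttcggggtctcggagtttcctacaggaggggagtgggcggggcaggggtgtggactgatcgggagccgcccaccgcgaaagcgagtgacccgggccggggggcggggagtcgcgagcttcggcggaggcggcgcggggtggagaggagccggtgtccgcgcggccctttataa
Procr: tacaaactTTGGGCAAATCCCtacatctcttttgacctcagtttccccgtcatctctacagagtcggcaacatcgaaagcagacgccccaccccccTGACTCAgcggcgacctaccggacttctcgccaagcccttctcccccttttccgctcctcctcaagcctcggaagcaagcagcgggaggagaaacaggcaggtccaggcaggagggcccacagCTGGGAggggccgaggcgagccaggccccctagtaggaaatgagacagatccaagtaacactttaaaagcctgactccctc
Plaur: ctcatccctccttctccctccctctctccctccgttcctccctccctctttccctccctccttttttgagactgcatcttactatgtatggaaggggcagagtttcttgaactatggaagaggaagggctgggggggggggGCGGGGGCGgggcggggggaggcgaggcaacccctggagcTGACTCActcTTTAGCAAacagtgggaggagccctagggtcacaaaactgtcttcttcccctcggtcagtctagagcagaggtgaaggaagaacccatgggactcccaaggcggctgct
All 3 windows hold the AP-1 word, at 2 places in F3, where the matches end 129 and 140 bases before the start. The match ends 148 bases before the start in Procr and 63 bases before it in Plaur. The Procr window is the only one of the 27 with the NF-kB word, and that match overlaps a C/EBP match. Plaur holds the EGR1 word and a C/EBP match. The other genes with the AP-1 word are Fgb, which rose, and F2 and Hrg, which were not called.

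F3, the cell-surface tissue factor, rose from 3.50, 2.13 and 4.04 CPM in untreated livers to 6.52, 10.04 and 15.00 CPM in LPS livers (log2 fold change 1.70, SE 0.36, adjusted p = 0.00546). Procr, the endothelial receptor of protein C, rose from 0.865, 0.927 and 0.434 CPM to 20.4, 35.5 and 29.7 CPM, 38.3-fold (log2 fold change 5.26, SE 0.35, adjusted p = 1.18e-05). Plaur, the receptor of urokinase, rose from 0.637, 0.371 and 0.695 CPM to 29.4, 20.9 and 25.00 CPM, 43.6-fold (log2 fold change 5.45, SE 0.29, adjusted p = 5.41e-06). In each of the 3 every LPS liver was above every untreated liver, and each call held in every fit that left out 1 library. Thbd, thrombomodulin, which turns thrombin toward protein C, rose from 2.46, 1.30 and 3.00 CPM to 6.52, 17.4 and 21.7 CPM (log2 fold change 2.75, SE 0.47, adjusted p = 0.00199), with LPS replicate 1 the lowest of the LPS livers. Tfpi2, a Kunitz inhibitor of plasmin and other proteases, rose from 24.8, 31.01 and 33.9 CPM to 50.2, 48.9 and 59.1 CPM (log2 fold change 0.82, SE 0.18, adjusted p = 0.00712), and was not called with library totals (adjusted p = 0.0796). The neutrophil markers that rose in the same livers stand above. Large peritoneal macrophage markers, 5 of 6 tested in liver, had 3 called higher and 0 lower (15.3 to 26.5, then 92.99 to 129 CPM). Vascular endothelium markers, 8 of 8 tested in liver, had 2 called higher and 2 lower (91.7 to 143, then 99.6 to 143 CPM). The part of these 3 cell types in these genes was not tested.

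Tfpi, the inhibitor of tissue factor with factor VIIa, had 4.69, 3.75 and 5.90 CPM untreated and 4.33, 1.94 and 2.28 CPM after LPS (log2 fold change -0.75, SE 0.36, adjusted p = 0.116). LPS replicate 1 alone overlapped the untreated livers, and without it Tfpi was called lower (adjusted p = 0.0246). Plat, tissue plasminogen activator, had 0.592, 0.556 and 0.304 CPM and 2.38, 0.277 and 0.949 CPM, and was called, among the settings tried, only without LPS replicate 2 (adjusted p = 0.162 with all libraries, 0.0426 without it). Its log2 fold change was 1.29 with all libraries and 0.33 without LPS replicate 1 (adjusted p = 0.710). Its highest level was in LPS replicate 1. Among the LPS livers that library had the highest summed levels of mesothelium, vascular endothelium and stellate cell markers (18.4, 143 and 630 CPM). It also had the lowest of Kupffer cell markers (99.9 CPM). The part of these cell types in the Plat level was not tested. Plau, urokinase, had 1.23, 0.510 and 1.78 CPM and 1.19, 0.666 and 1.39 CPM (log2 fold change -0.13, SE 0.51, adjusted p = 0.860). F13a1, the catalytic subunit of factor XIII, was below the filter, with 5 counts over the untreated livers and 29 over the LPS livers. With no low-count filter it was called higher (log2 fold change 2.85, SE 0.87, adjusted p = 0.0142). It was also called higher in the 4 fits with 1 library left out in which it passed the filter. Its counts per library were 0, 2 and 3 untreated and 7, 12 and 10 after LPS, so it passed there only through the LPS group. Those 4 calls are therefore not separate support.

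Apart from Tfpi2, the genes of other cells were far below the hepatocyte genes in untreated level. Per length, the untreated levels of the hepatocyte genes ran from 16.6 ± 1.96 RPKM (F11) to 1358 ± 239.9 RPKM (Fgg; mean ± SD, n = 3). The chains were followed by Kng1 at 616 ± 135, Plg at 567 ± 148 and Hrg at 394 ± 124 RPKM. Of the 34 pairs of neighbours in the order of all 35 levels, 10 had means further apart than the larger of their SDs, among them Fgb above Kng1, Plg above Hrg and F11 above Adamts13. The other 24 pairs, the 3 fibrinogen chains included, did not differ beyond their spread. Tfpi2 at 17.1 ± 2.67 RPKM was level with Pros1 at 17.1 ± 2.03 and F11. The other 11 genes from other cells were all at or below the 1.37 ± 0.142 RPKM of Adamts13, and F13a1 was last. After LPS, Procr reached 14.1 ± 3.74 RPKM and Plaur 9.59 ± 1.63 RPKM, while Serpina10 reached 251 ± 12.2 RPKM. Of the 23 hepatocyte genes 5 were called higher and 3 lower (21.7% and 13%), with a median log2 fold change of 0.19 (0.10 without untreated replicate 1 and 0.31 without untreated replicate 2). Beside them, 1 of 8 hepatocyte markers was called higher and 1 lower. Of the 11 others tested 5 were called higher and 1 lower (45.5% and 9.09%), with a median of 0.82, which is the value of Tfpi2. The shares over all genes were 23.3% higher and 22.1% lower, and the hepatocyte share called higher was near the first. The median over all genes was -0.06. With library totals these 3 medians were -0.23, 0.40 and -0.49. The difference between these medians was not tested, and the second rests on few genes: by LPS library, the median difference from the untreated mean was 0.33, 0.23 and 0.28 on the log2 scale for the hepatocyte genes and 0.84, -0.52 and 0.95 for the others.

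**Figure D2:**
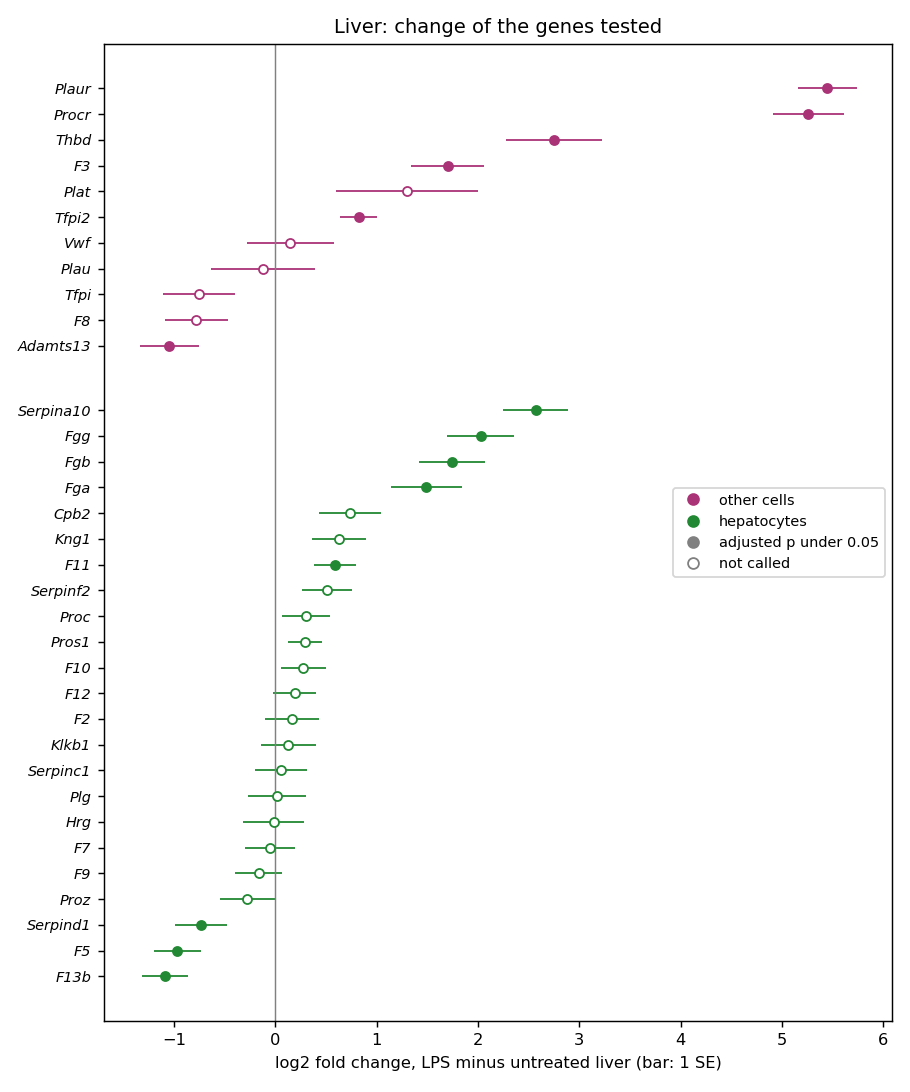
Log2 fold change in liver (LPS minus untreated) with its SE for each gene tested, split into 23 hepatocyte genes and 11 genes of other cells; filled points were called at an adjusted p under 0.05. Serpina10 and the fibrinogen chains lead the hepatocyte genes, and Plaur and Procr lead the others at 5.45 and 5.26.

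A further 38 genes of the same pathways, listed by role, were looked up in liver. Of these 31 were tested, with 14 called higher and 6 lower (45.2% and 19.4%), beside 23.3% and 22.1% of all genes, so that the share called lower was near that of all genes. Under library totals 10 were called higher and 9 lower, where the all-gene calls were 1943 and 5305 of 13869. The plasmin inhibitor A2m had 2 counts over the untreated livers and 2027 over the LPS livers, a ratio of 1356 with a 95% counting interval of 375 to 11201. Fap, a protease known in human to trim the plasmin inhibitor, rose from a mean of 0.148 ± 0.0974 to 2.68 ± 0.808 CPM, and its log2 fold change of 4.11 was 4.77 without untreated replicate 3 (adjusted p = 0.000405 and 0.000338). The plasminogen receptor Plgrkt rose 4.55-fold (log2 fold change 2.19, SE 0.27, adjusted p = 0.000362).

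The vitamin K cycle, which carboxylates F2, F7, F9, F10, Proc, Pros1 and Proz, was split. The carboxylase Ggcx fell from 32.6, 35.3 and 34.9 CPM to 15.9, 21.7 and 21.7 CPM (log2 fold change -0.79, SE 0.18, adjusted p = 0.00774), and the reductase paralogue Vkorc1l1 fell from 40.8, 35.4 and 42.2 CPM to 18.9, 24.6 and 24.2 CPM (log2 fold change -0.81, SE 0.18, adjusted p = 0.00663). The reductase Vkorc1 rose from 10.5, 15.9 and 9.07 CPM to 31.3, 24.4 and 22.5 CPM (log2 fold change 1.14, SE 0.25, adjusted p = 0.00657). Furin, the protease that cuts factor precursors, fell from a mean of 209 ± 15.4 to 99.3 ± 19.1 CPM (log2 fold change -1.08, SE 0.21, adjusted p = 0.00359). Serping1, the inhibitor of the contact proteases, rose 1.98-fold (log2 fold change 0.98, SE 0.27, adjusted p = 0.0176), a call ended by library totals (adjusted p = 0.0705) and by omitting LPS replicate 2 (0.0738) or LPS replicate 3 (0.0661). Thrombin's receptor F2r fell from a mean of 10.7 ± 2.21 to 6.39 ± 0.406 CPM (adjusted p = 0.0249), a call ended by omitting untreated replicate 1 (0.0699), untreated replicate 3 (0.0619), LPS replicate 1 (0.0646), LPS replicate 2 (0.0607), or LPS replicate 3 (0.0797). Of the clearance receptors, Stab2 and Asgr1 were called higher (adjusted p = 0.0286 and 0.0382). The Stab2 call did not stand without untreated replicate 2 (0.0804), LPS replicate 1 (0.0778) or LPS replicate 2 (0.0743). For Asgr1 the same was true of untreated replicate 1 (0.0788), LPS replicate 1 (0.0840), LPS replicate 2 (0.106), or LPS replicate 3 (0.0945). Under library totals neither was called, at log2 fold changes of 0.28 and 0.30 against 0.73 and 0.71 with TMM (adjusted p = 0.392 and 0.249), and Asgr1 was not called with no low-count filter (adjusted p = 0.0639).

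In the last list, thrombospondin (Thbs1) rose from 2.55, 0.834 and 0.695 CPM to 59.5, 38.2 and 41.3 CPM (log2 fold change 5.09, SE 0.48, adjusted p = 7.65e-05), and its log2 fold change was 5.90 without untreated replicate 1. Syndecan 4 (Sdc4), a heparan sulfate proteoglycan, rose from a mean of 283 ± 45.2 to 1139.6 ± 103 CPM (log2 fold change 2.01, SE 0.24, adjusted p = 0.000281). The fibrinogen-like genes also rose: Fgl2, a prothrombinase of the cell surface, by a log2 fold change of 1.73 (SE 0.36) and the hepatocyte gene Fgl1 by 1.51 (SE 0.29), with adjusted p = 0.00518 and 0.00347.

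In macrophages, 15 of the 35 genes passed the filter. With shGm26917 4 were called higher (F7, Proz, Tfpi and Vwf) and 4 lower (F3, Procr, Plaur and Plat), 26.7% of the 15 each way, where 12.6% of all 12876 genes tested were called higher and 11.1% lower. The counts depended on single libraries: higher calls numbered 7 without shNC replicate 2, and 2, 1 and 2 without shGm26917 replicates 1, 2 and 3. Lower calls numbered 2 without shNC replicate 1 and 2 without shNC replicate 3, and 2, 2 and 1 without shGm26917 replicates 1, 2 and 3. The all-gene calls moved in the same directions. All-gene higher calls numbered 2715 without shNC replicate 2, and 730, 479 and 572 without shGm26917 replicates 1, 2 and 3. All-gene lower calls numbered 1084 and 801 without shNC replicates 1 and 3. Without shGm26917 replicates 1, 2 and 3 they numbered 611, 360 and 406. Of the 6 hepatocyte genes tested 2 were called higher, and of the 9 others 2 were called higher and 4 lower. Of the 20 genes below the filter 14 had 3 counts or fewer over all 6 libraries, and 7 of these had none (F13b, Fgb, Serpina10, Plg, Proc, Kng1 and Hrg). The other untested genes were F2, F8, F9, F11, F12, Fga, Fgg, Serpinc1, Serpind1, Serpinf2, Cpb2, Tfpi2 and Adamts13. Klkb1 was tested at levels under 1 CPM and not called (adjusted p = 0.461).

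**Figure D3:**
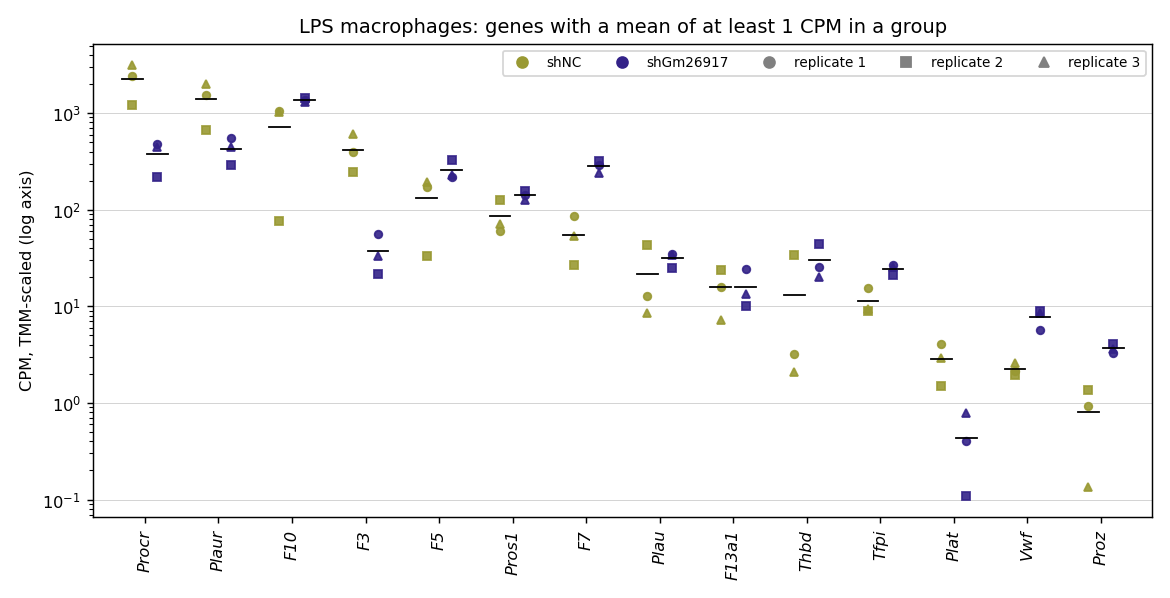
Level in LPS-treated macrophages of the genes with a mean of at least 1 CPM in either group, in CPM on a log axis, with 1 point per library (3 shNC, 3 shGm26917). F3, Procr, Plaur and Plat lie lower in every shGm26917 library, and F7, Proz, Tfpi and Vwf lie higher.

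Tissue factor, the surface receptors Procr and Plaur, and the activator Plat were lower with shGm26917. F3 had 397, 244 and 600.5 CPM in the shNC libraries and 56.6, 21.4 and 33.1 CPM in the shGm26917 libraries (log2 fold change -3.48, SE 0.48, adjusted p = 0.00598). Every shGm26917 library was below every shNC library, and the call held in every fit that left out 1 library. Procr fell from 2399.6, 1219 and 3107 CPM to 479.7, 219 and 444 CPM (log2 fold change -2.56, SE 0.44, adjusted p = 0.0110), and was not called without shGm26917 replicate 3 (0.0510). Plaur fell from 1546, 661 and 1988 CPM to 546, 288 and 444 CPM (log2 fold change -1.71, SE 0.44, adjusted p = 0.0333). The lowest shNC level of Procr and of Plaur was in replicate 2 and still above all shGm26917 levels. The Plaur call was lost without shNC replicate 1 (0.0785), shNC replicate 3 (0.0891), shGm26917 replicate 1 (0.0738), shGm26917 replicate 2 (0.119), or shGm26917 replicate 3 (0.111). Plat had 4.09, 1.49 and 2.90 CPM and 0.407, 0.110 and 0.794 CPM (log2 fold change -2.68, SE 0.67, adjusted p = 0.0315), and its call was lost without shNC replicate 1 (0.0851), shNC replicate 3 (0.0785), shGm26917 replicate 1 (0.107), shGm26917 replicate 2 (0.0837), or shGm26917 replicate 3 (0.0545). Without shGm26917 replicate 3 its log2 fold change was -3.40.

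F7 went up, from 85.8, 26.6 and 53.1 CPM in the shNC libraries to 293, 319 and 238 CPM in the shGm26917 libraries (log2 fold change 2.36, SE 0.41, adjusted p = 0.0108), and was not called without shGm26917 replicate 2 (0.0502). Its neighbour Proz rose from 0.938, 1.35 and 0.135 CPM to 3.31, 4.11 and 3.63 CPM (log2 fold change 2.18, SE 0.61, adjusted p = 0.0445), a call that was lost without shNC replicate 1 (0.0978), shGm26917 replicate 1 (0.107), shGm26917 replicate 2 (0.136), or shGm26917 replicate 3 (0.122). F10, which lies between them, had 1053, 76.7 and 1033 CPM and 1378, 1437 and 1314 CPM. The F10 groups did not overlap, with shNC replicate 2 far below the rest, and it was not called with that library (log2 fold change 0.93, SE 0.80, adjusted p = 0.430) or without it (log2 fold change 0.38, adjusted p = 0.0543). Per length, F10 in the shGm26917 macrophages stood at 504 ± 22.5 RPKM and F7 at 152 ± 22.4 RPKM (mean ± SD, n = 3). Both are known mainly as hepatocyte genes, while the 8 hepatocyte markers summed to at most 0.54 CPM in these libraries.

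Tfpi rose from 15.4, 8.85 and 9.45 CPM to 26.6, 21.1 and 25.3 CPM (log2 fold change 1.11, SE 0.24, adjusted p = 0.0205), a call that was lost without shNC replicate 3 (0.0668), shGm26917 replicate 1 (0.0753), shGm26917 replicate 2 (0.0588), or shGm26917 replicate 3 (0.0795). Vwf rose from 2.14, 1.96 and 2.57 CPM to 5.70, 8.98 and 8.45 CPM (log2 fold change 1.79, SE 0.26, adjusted p = 0.00667), without overlap, and its call held in every fit that left out 1 library. Beside it, of 8 vascular endothelium markers 4 were tested, none was called higher and 2 were called lower. Of 9 platelet and megakaryocyte markers 3 were tested, 1 was called higher and 1 lower. The part of these cell types in the Vwf level was not tested.

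The remaining macrophage genes were not called, and shNC replicate 2 decided several of them. F5 had 172, 32.9 and 194 CPM and 220.3, 326 and 228 CPM (log2 fold change 0.96, SE 0.59, adjusted p = 0.274). Pros1 had 60.1, 125 and 70.6 CPM and 143, 157 and 125 CPM (log2 fold change 0.74, SE 0.28, adjusted p = 0.102), and Plau had 12.8, 42.98 and 8.44 CPM and 35.1, 24.7 and 34.1 CPM (log2 fold change 0.55, SE 0.57, adjusted p = 0.517). Thbd had 3.22, 33.99 and 2.09 CPM and 25.3, 44.02 and 20.2 CPM (log2 fold change 1.19, SE 0.98, adjusted p = 0.413). Without shNC replicate 2 the log2 fold change of F5 was 0.48 (adjusted p = 0.0766). In Pros1, Plau and Thbd that library was the highest shNC library, and in F5 it was the lowest. Without it Pros1, Plau and Thbd were called higher (adjusted p = 0.000902, 0.00164 and 0.000572), with log2 fold changes of 1.10, 1.55 and 3.47, so that 7 of the 35 were called higher and 4 lower. F13a1 had 15.9, 23.99 and 7.16 CPM and 24.2, 9.96 and 13.3 CPM with overlap (log2 fold change 0.02, SE 0.49, adjusted p = 0.985). Among macrophage markers 3 of 6 were called higher with shGm26917, as were 3 of 6 markers of large peritoneal macrophages, whose summed level was 336 to 445 CPM with shNC and 1185 to 2069 CPM with shGm26917. The part of such a shift in these genes was not tested.

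Of the 38 further pathway genes, 21 were tested in macrophages, with 2 called higher and 7 lower (9.52% and 33.3%), beside 12.6% and 11.1% of all genes. Under library totals the counts were 2 and 5, where the all-gene calls were 3135 and 794 of 12876. Higher calls numbered 4 without shNC replicate 2, and at most 1 without shGm26917 replicate 1, 2 or 3. Lower calls numbered 4 without shNC replicate 3, and 4, 2 and 2 without shGm26917 replicates 1, 2 and 3. The all-gene calls of these fits, given above, moved in the same directions. Serpinb2, an inhibitor of Plau and Plat and an abundant transcript here, fell from 6439, 7844 and 8442 CPM to 3867, 2524 and 2059 CPM (log2 fold change -1.43, SE 0.30, adjusted p = 0.0182), a call that was lost without shNC replicate 3 (0.0512), shGm26917 replicate 2 (0.0848) or shGm26917 replicate 3 (0.0825). Sdc4 fell from 283, 506 and 361 CPM to 109.9, 73.7 and 70.9 CPM (log2 fold change -2.18, SE 0.28, adjusted p = 0.00508), and the call held in every fit that left out 1 library. Furin fell from a mean of 514 ± 94.7 to 234 ± 40.4 CPM (adjusted p = 0.0118), a call that was lost without shGm26917 replicate 2 (0.0574) or shGm26917 replicate 3 (0.0539). Fap, at a few CPM, was also called lower (log2 fold change -2.67, adjusted p = 0.0254), but not without shGm26917 replicate 1 (0.0917), shGm26917 replicate 2 (0.101) or shGm26917 replicate 3 (0.0832), and its log2 fold change was -1.86 without shNC replicate 2.

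The export receptors Lman1 and Mcfd2, which carry factors V and VIII out of the endoplasmic reticulum, were called lower (log2 fold change -0.45 and -0.51, adjusted p = 0.0353 and 0.0359). Vkorc1 and the prostacyclin synthase Ptgis were called higher (log2 fold change 0.85 and 1.46, adjusted p = 0.0151 and 0.0165). Under library totals Lman1 and Mcfd2 were not called, at log2 fold changes of -0.16 and -0.22 (adjusted p = 0.323 and 0.262), nor were they with no low-count filter (adjusted p = 0.0978 and 0.0738). The Lman1 call was lost without shNC replicate 1 (0.0683), shNC replicate 3 (0.0873), shGm26917 replicate 1 (0.0849), shGm26917 replicate 2 (0.149), or shGm26917 replicate 3 (0.115). The Mcfd2 call was lost without shNC replicate 1 (0.0933), shNC replicate 3 (0.0937), shGm26917 replicate 1 (0.0981), shGm26917 replicate 2 (0.137), or shGm26917 replicate 3 (0.122). For Vkorc1 the call was lost without shGm26917 replicate 1 (0.0605), shGm26917 replicate 2 (0.0656) or shGm26917 replicate 3 (0.0609), and for Ptgis without shNC replicate 3 (0.0598), shGm26917 replicate 1 (0.0596) or shGm26917 replicate 2 (0.0672).

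**Figure D4:**
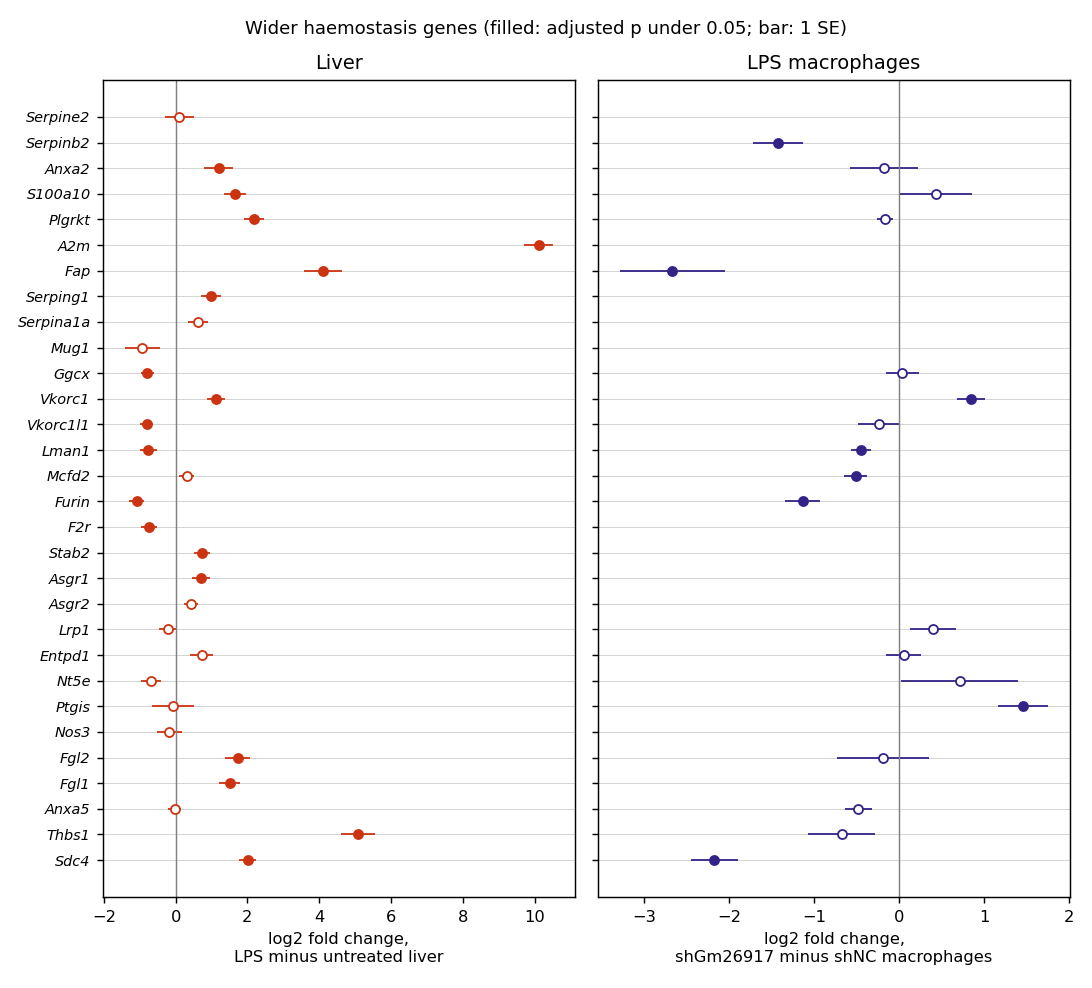
Log2 fold change with its SE of further pathway genes that were tested, in liver (LPS minus untreated) and in LPS-treated macrophages (shGm26917 minus shNC); filled points were called. Sdc4 stands at 2.01 in liver and at -2.18 in macrophages, and A2m in liver rests on 2 counts over the untreated libraries.

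The macrophage and liver comparisons share no library. Of the 14 genes tested in both, F3, Procr and Plaur were called in both, which is 21.4% of the 14 called in liver and 37.5% of the 8 called in macrophages. All 3 were higher in LPS liver and lower with shGm26917. Of genes tested in both tissues, 3 of these 14 had those 2 calls, beside 654 (5.74%) of all 11400. The 21.4% and 37.5% are shares of genes called, so 5.74% is not their counterpart. Set against genes called, the 3 were of 4 called lower in macrophages and of 10 called higher in liver. Over all genes the 654 were of 1431 and of 3227. The difference between these shares was not tested. The log2 fold changes were 1.70 and -3.48 for F3, 5.26 and -2.56 for Procr, and 5.45 and -1.71 for Plaur, in liver and macrophages in that order. F5 was called lower in liver and not called in macrophages, where its log2 fold change was 0.96, or 0.48 without shNC replicate 2. F7, Proz, Tfpi and Vwf were called in macrophages and not in liver, and Thbd in liver and not in macrophages. Whether a gene's 2 differences differ from each other was not tested, since LPS is the contrast in liver and is common to both macrophage groups.

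**Figure D5:**
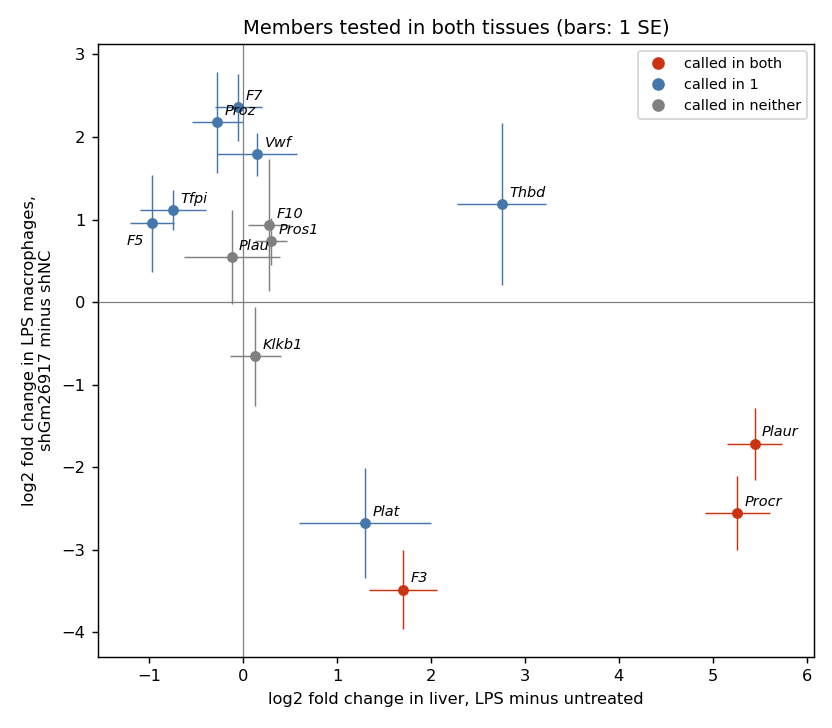
Log2 fold change in liver (LPS minus untreated, x axis) against that in LPS-treated macrophages (shGm26917 minus shNC, y axis) for the 14 genes tested in both, with SE bars. F3, Procr and Plaur, called in both, lie at the lower right.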

How the data were processed

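The deposited values are counts, whole-number reads per Ensembl gene ID and not normalized, per the file headers, 1 table per library. STAR, featureCounts 1.6.3 and mm10 are named in the submitters' processing notes. The sources used here do not state strand, multi-mapping, the annotation release or the sense of the word combined in the macrophage headers. Groups and replicate numbers came from the labels. The 35 genes, the 38 further pathway genes, the marker lists and the motif words were chosen with earlier results of these data known.

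Each tissue was fitted alone in edgeR 4.0.16 under R 4.3.3 (filterByExpr, TMM, quasi-likelihood F test, 2-sided, Benjamini-Hochberg over 13869 genes in liver and 12876 in macrophages). SE was taken as the size of the log2 fold change over the root of its F statistic. Fold differences are 2 to the power of the log2 fold change. RPKM used merged exon lengths of GENCODE M21. All of the 35 genes are named, those with a mean of at least 1 CPM in a group with each library's level, and up to 4 called genes of each further list by size of change; some of these are not reported here, though the counts of calls include them. In simulated counts the test recovered 90.5% of 4-fold and 25.5% of 2-fold changes in liver (13590 genes), and 93.8% and 32.7% in macrophages (12635 genes). Only 100 genes per tissue were changed at each fold there. Many more were called in the data (3227 higher and 3060 lower in liver, 1618 and 1431 in macrophages), so these shares need not hold for the data. Alternatives were DESeq2 1.42.0, library totals, other low-count filters, each library left out and a replicate block. Counting intervals cover counting error only.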

Additional observations from a re-analysis of the deposited data

How the results depend on the processing

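Whether the replicate numbers pair the libraries could not be settled with 3 libraries per group. Same-numbered libraries correlated at 0.118, 0.0498 and -0.0766 in liver, and different-numbered ones at -0.186 to 0.123. In macrophages same-numbered libraries correlated at -0.0407, 0.24 and 0.178, and different-numbered ones at -0.236 to 0.157. With the replicate block the 35 genes gave 10 higher and 4 lower calls in liver (F11 lost, Cpb2 gained) and 4 and 4 in macrophages (Proz lost, Pros1 gained), and the further pathway genes gave 13 and 5 (Asgr1 and F2r lost) and then 2 and 5 (Lman1 and Mcfd2 lost). With library totals 8 of the 35 genes were called lower in liver, where 5305 of all 13869 genes were. The hepatocyte median was then -0.23, and that scaling moves all genes together. Leaving out 1 library at a time, the genes called lower in liver numbered 2 to 4 and the hepatocyte median was 0.10 to 0.31. All-gene lower calls in those fits ran from 2187 to 2990. In macrophages 1 to 7 were called higher and 1 to 4 lower, and of the further pathway genes 0 to 4 higher and 2 to 9 lower. The fit without shNC replicate 2 gave the highest of each of these counts. That fit also gave the most all-gene calls of the fits with 1 library left out, 2715 higher and 2521 lower. DESeq2 gave 12 and 4 in liver and 4 and 4 in macrophages, and the filters on low counts kept each count of calls within 1.5 times.

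No called gene named above changed sign under any alternative run. Values that were not called and changed sign were the following. With library totals, liver log2 fold changes were -0.25 for F2, -0.14 for F10, -0.23 for F12, -0.36 for Serpinc1, -0.40 for Plg, -0.11 for Proc, -0.13 for Pros1, -0.28 for Klkb1 and -0.29 for Vwf. Over the fits that left out 1 liver library, the log2 fold change ran from -0.023 to 0.25 for F2, -0.29 to 0.10 for F7, -0.12 to 0.15 for Serpinc1, -0.12 to 0.22 for Plg, -0.13 to 0.31 for Klkb1, -0.24 to 0.22 for Hrg, -0.51 to 0.31 for Plau and -0.33 to 0.50 for Vwf. The block gave 0.012 for Hrg. In macrophages F13a1 ran from -0.43 to 0.45 with 1 library left out and was -0.0033 with DESeq2. The cause of these changes was not tested. Depth limits the genes of a few counts, such as F13a1 and Plat in liver and Plat and Proz in macrophages. Vwf in macrophages had 29 to 38 counts per shNC library and 112 to 164 per shGm26917 library. Exon length from the longest transcript in place of merged exons left the tests as they were, but changed the rank per length of 19 of the 34 liver genes with a mean of at least 1 CPM in a group.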
